A study of Mus musculus and Rattus norvegicus with 53 samples.

Results

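EphB receptors and their ephrin-B ligands were followed in mouse Schwann cells (SCs) sorted from intact and cut sciatic nerves. The set held the 8 genes of the class B system, taken by symbol from the count files: the receptors Ephb1, Ephb2, Ephb3, Ephb4 and Ephb6 and the ligands Efnb1, Efnb2 and Efnb3. They are 8 of the 24016 mouse genes listed, and all of them passed the filter on low counts in both experiments. In the pooled experiment, iSCs of the intact nerve opposite the injury, dSCs of the distal stump and bSCs of the nerve bridge were collected 6 days after transection, with 4 libraries a region and the nerves of 3 mice in each library. In the single-nerve experiment, 35 libraries came from 5 intact nerves, from distal stumps at 6 time points (days 1 and 2 and every other day up to day 10) and from bridges at 4 time points (day 4 to day 10), with 3 libraries at each. All groups carried the same reporter: young adult male and female mice expressed tdTomato from the Rosa26 locus after recombination by a Cre transgene active in the neural crest and SC lineage, and cells were sorted on tdTomato, so that a level is a mean over every cell with that fluorescence.

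Ephrin-B proteins span the membrane, and bind EphB receptor tyrosine kinases on a touching cell. Signals run in both directions, forward into the cell with the receptor and reverse into the cell with the ligand, and usually end in repulsion or in the sorting of cells into separate groups. EphB6 has the receptor fold without kinase activity. After a nerve is cut, SCs lose their myelin programme, and those that enter the bridge between the stumps meet fibroblasts rich in ephrin-B, a contact that acts through EphB2 on the SC to gather the SCs into cords.

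Counts assigned to genes lay between 11435463 and 22617054 per pooled library and between 9240883 and 22426128 per single-nerve library. Levels are given as CPM (gene counts over library size, scaled by TMM factors), and changes as log2 fold changes with their standard error (SE) from edgeR's quasi-likelihood test, called at a Benjamini-Hochberg adjusted p under 0.05 over all genes tested. Some members were at 0 counts in one replicate and well above it in another. Of the 10 Schwann markers listed, all were detected in each group, with a summed level of 9692 to 24289 CPM in iSCs, 1668 to 5459 CPM in dSCs and 1535 to 4120 CPM in bSCs. A list of 10 fibroblast markers, several of them matrix genes that SCs can also express, summed to 11599 to 57676 CPM in the pooled libraries, and none of the 10 was at 0 in a group. Some single-nerve libraries stood apart. In 4 of them (intact replicates 0 and 1, distal day 1 replicate 1 and distal day 2 replicate 0) 10042 to 11138 genes were detected, against 11983 or more in the others. The libraries labelled bridge day 4 replicate 1 and distal day 4 replicate 1 differed by a chi-square per degree of freedom of 3.91, against at least 46.4 for any other pair, with 0 genes above 50 counts in one and absent in the other, as the same cDNA sequenced under both labels would give. By the genes that separated bSCs from dSCs in the pooled nerves, members left out, the libraries labelled bridge day 4 replicate 1 and bridge day 8 replicate 2 lay nearer to the distal mean and the library labelled distal day 10 replicate 0 nearer to the bridge mean. Some results of the single nerves are therefore given also without these libraries, and the others with all libraries only. Of the 8, 6 were set apart by detection or shared cDNA and 3 by their profile of the regions, 1 of them by both, so that leaving out all 8 favours a difference between bridge and distal stump.

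Per length of exonic sequence, Efnb1 stood first of the 8 members in all regions, with 23.3 ± 7.54 CPM per kb in iSCs, 29.4 ± 6.52 in dSCs and 19.3 ± 7.68 in bSCs (SD, n = 4). Efnb1, one of the ligands for EphB2 and EphB3, exceeded 83.0% of all genes detected in iSCs, 86.1% in dSCs and 77.1% in bSCs. Second place was taken by Ephb6 in iSCs (22.4 ± 12.03 CPM per kb) and bSCs (14.6 ± 1.94), and by Efnb2 in dSCs (15.5 ± 7.12). In each region the ranges of the first and second gene overlapped. Ephb2, the receptor studied in these cells, was low per length. It reached 0.582 ± 0.322 CPM per kb in iSCs, where it was the lowest of the 8, 1.29 ± 0.967 in dSCs and 1.55 ± 0.838 in bSCs. Its exonic length is 12.6 kb, beside 3.18 to 6.49 kb in the other members, which lowers these values. Without division by length its mean was 7.34 CPM in iSCs, still the lowest, and 16.3 CPM in dSCs, above Ephb4 (14.7) and Ephb6 (14.9). In iSCs the ranges of neighbours in the order overlapped except between Ephb3 and Ephb1. In dSCs Efnb2 was separated from Ephb3 below it and Ephb2 from Ephb1, and in bSCs Ephb6 was separated from Ephb4 and Ephb2 from Ephb1.

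Summed per length, in the pooled cells the receptors were lowest and the ligands highest in dSCs. The 5 receptors came to 35.9 ± 10.6 CPM per kb in iSCs, 12.8 ± 5.88 in dSCs and 27.7 ± 2.60 in bSCs (SD, n = 4). The 3 ligands came to 32.3 ± 8.604 in iSCs, 48.1 ± 9.88 in dSCs and 23.8 ± 7.68 in bSCs. Ligands exceeded receptors in 1 of 4 iSC libraries, 4 of 4 dSC libraries and 2 of 4 bSC libraries. Ephb6 made up 62.4% of the receptor mean in iSCs, 30.9% in dSCs and 52.6% in bSCs, whereas Ephb2 made up 1.62%, 10.1% and 5.57%. Efnb2 made up 6.59% of the ligand mean in iSCs, 32.2% in dSCs and 18.9% in bSCs. Over all days of the single nerves, the ligands came to 41.8 CPM per kb in intact nerves, 29.8 in the distal stump and 31.6 in the bridge. The receptors came to 26.8, 18.8 and 33.6, again lowest in the distal stump. The distal mean takes in days 1 and 2, with ligands at 13.6 and 17.5. At day 6, the day of the pooled cells, the ligands came to 40.2 in the distal stump and 34.8 in the bridge. The receptors of that day came to 24.5 and 41.0. Over all days the ligands exceeded the receptors in 5 of 5 intact, 13 of 18 distal and 5 of 12 bridge libraries. These sums are a description and were not tested.

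**Figure D1:**
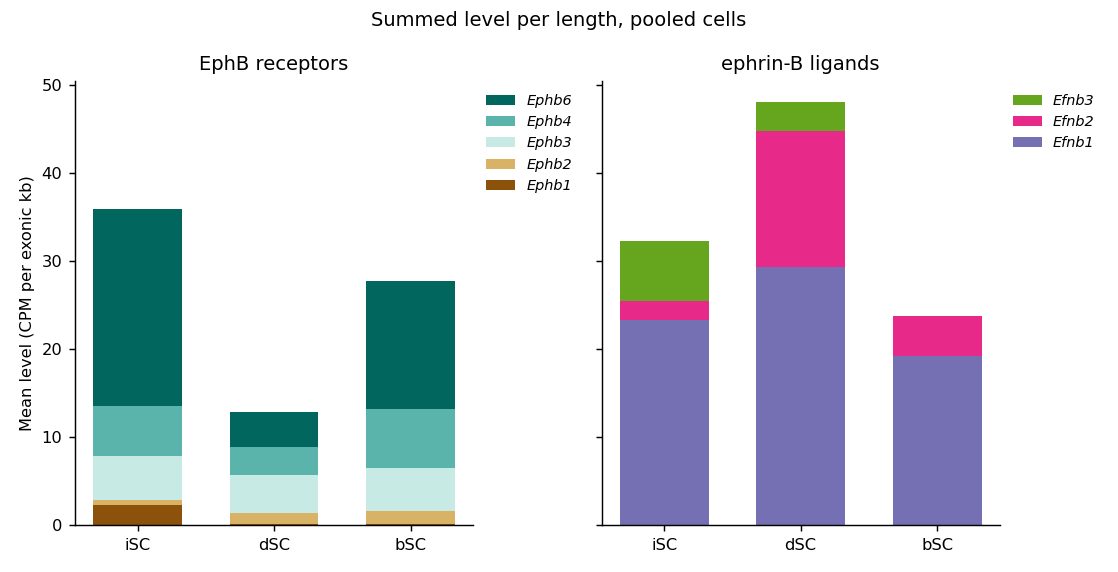
Mean level per exonic kb of the receptors (left) and ligands (right) in iSCs, dSCs and bSCs, as CPM per kb over 4 pooled libraries a region, stacked by gene. The receptor bar is lowest in dSCs, where the Ephb6 segment is 3.96 CPM per kb, and the ligand bar is highest there, where the Efnb2 segment is 15.5 CPM per kb.

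In the pooled cells 2 of the 8 members differed between dSCs and iSCs, where 5.32% of the 13751 genes tested were called (2.63% higher and 2.69% lower), 1 member differed between bSCs and iSCs (14.7% of genes called, 7.24% higher and 7.46% lower) and 1 between bSCs and dSCs (5.43%, with 2.31% higher and 3.11% lower). Efnb2 was higher and Ephb6 lower in dSCs than in iSCs, and Efnb3 was at 0 counts in all bSC libraries. The comparisons of dSCs and of bSCs share the iSC libraries. At an unadjusted p under 0.05 the members numbered 2, 2 and 3 in the same order, and DESeq2 called 2, 1 and 2.

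Efnb2, the ligand of EphB4 on vessels and of several EphB receptors in neural tissue (mouse chromosome 8, 8617434 to 8661239 on the minus strand of NCBIM37, 5 exonic blocks), was measured at 13.6, 9.40, 4.31 and 13.5 CPM in the iSC libraries. The dSC libraries held 114, 83.8, 31.9 and 67.3 CPM, and the bSC libraries 23.2, 36.1, 1.20 and 25.6 CPM. Every dSC library lay above every iSC library, and the bSC libraries reached from below the iSC range to just above the lowest dSC library. Separation of this kind between dSCs and iSCs held for 17% of the genes tested. The log2 change of dSCs against iSCs was 2.86 (SE 0.77, adjusted p = 0.0479, edgeR). The call was near its threshold. With the animal number of the labels as a replicate block, the change was 3.20 (adjusted p = 0.0662). The regions share these numbers except for number 4, found only in iSCs, and number 3, found only in dSCs and bSCs. In that fit iSC replicate 4 thus stands alone in its block and adds nothing to the change. With a term for the number of lanes the change was 2.26 (adjusted p = 0.0943). Leaving out 1 library at a time gave an adjusted p between 0.0492 and 0.136, past the threshold only without dSC replicate 3. With dSCs and iSCs fitted alone, adjusted p was 0.00908. Against dSCs, Efnb2 was 1.78 lower on the log2 scale in bSCs (SE 0.74) at an adjusted p of 0.175. The endothelial marker sum of dSCs, 244 to 901 CPM, overlapped that of iSCs, 205 to 1005 CPM. The macrophage sum was higher in dSCs (9837 to 16030 CPM) than in iSCs (228 to 5714 CPM). The fibroblast sum of dSCs, 35130.5 to 51212 CPM, lay within the iSC range of 11599 to 57676 CPM. In bSCs the fibroblast sum was 19962 to 36067 CPM. The part of such cells in the Efnb2 values was not tested. In bulk libraries more RNA per cell and more cells with the transcript cannot be told apart.

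Efnb3, a ligand best known from the nervous system, was measured at 19.1, 8.18, 37.1 and 23.2 CPM in iSCs (chromosome 11, 69367594 to 69373707, minus strand). The dSC libraries gave 0.611, 29.4, 9.52 and 1.49 CPM. All 4 bSC libraries had 0 counts, which allows a level of up to 0.0434 CPM over the group if 3 counts are taken as the limit, counting error only. The mean of 21.9 ± 11.9 CPM in iSCs was thus at least 504-fold higher, and that of 10.3 ± 13.4 CPM in dSCs at least 236-fold higher, than in bSCs. The second limit rests on dSC replicate 2, at 29.4 CPM, and is 89.2-fold without it. Both comparisons passed the test (adjusted p = 0.00301 against iSCs and 0.0129 against dSCs), and no alternative without 1 library undid them. The contrast with dSCs was lost with the replicate block (adjusted p = 0.0923) and when bSCs and dSCs were fitted alone (adjusted p = 0.0617). Of dSCs against iSCs the log2 change was -1.09 (SE 1.16, adjusted p = 0.783), with libraries that overlapped widely. The Schwann marker sum was also higher in iSCs (9692 to 24289 CPM) than in bSCs (1535 to 4120 CPM). Efnb3 correlated with it at r = 0.707 over the 12 pooled and 0.652 over the 35 single-nerve libraries, which share their regions. What the Schwann sum has to do with the Efnb3 values was not tested.

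Efnb1 (chromosome X, 96331469 to 96344330, plus strand) was measured at 63.3, 72.8, 66.5 and 119 CPM in iSCs, 70.1, 121, 100 and 113 CPM in dSCs and 90.2, 32.4, 59.0 and 84.5 CPM in bSCs. Its regions overlapped, and the 95% interval of the log2 change ran from -0.40 to 1.07 for dSCs against iSCs and from -1.34 to 0.13 for bSCs against dSCs.

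**Figure D2:**
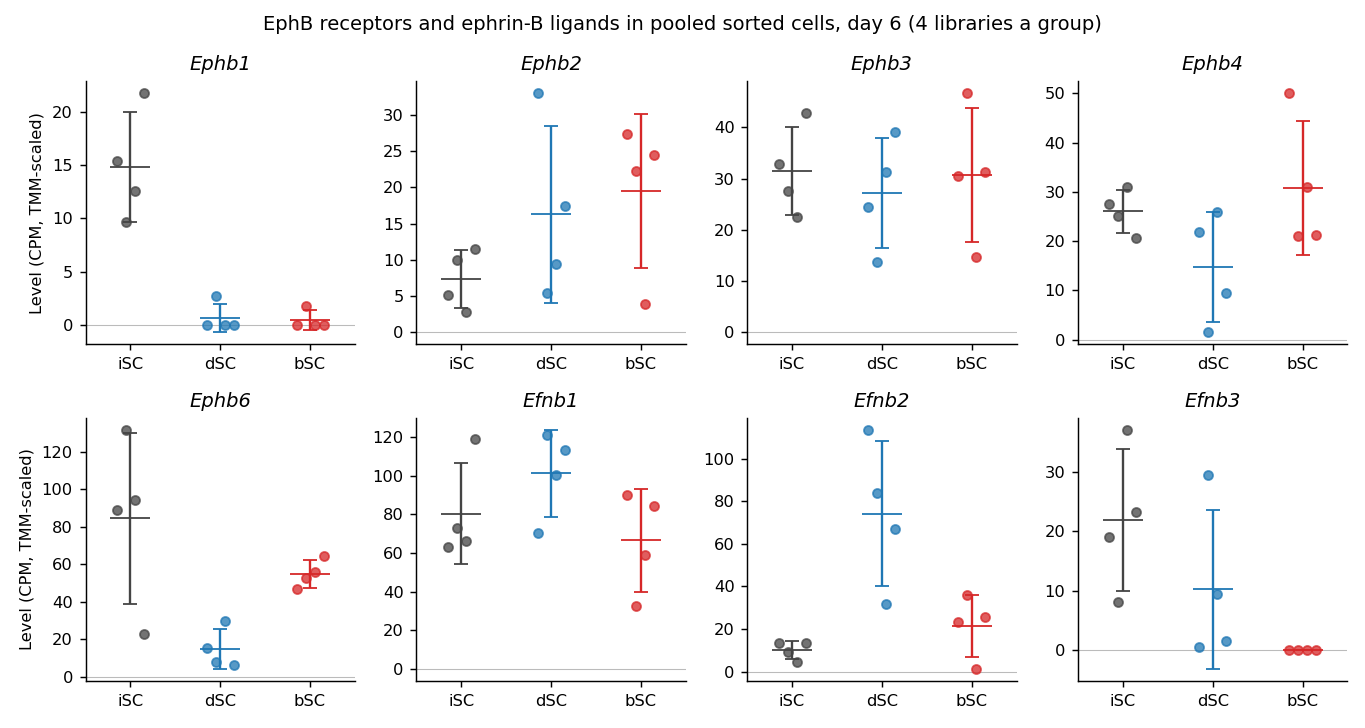
Level of each member (CPM, TMM-scaled, each panel on its own scale) in iSCs, dSCs and bSCs, with 1 point per pooled library and the mean ± SD of 4 libraries. The dSC points of Efnb2 sit between 31.9 and 114 CPM above all iSC points, the bSC points of Efnb3 lie at 0, and the bSC points of Ephb6 sit between 46.9 and 64.4 CPM above all dSC points.

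Ephb6, the receptor without kinase activity (chromosome 6, 41555481 to 41570508, plus strand, 18 exonic blocks), was measured at 89.3, 132, 94.3 and 22.7 CPM in iSCs. It was at 15.6, 7.86, 29.7 and 6.56 CPM in dSCs and at 46.9, 52.8, 55.8 and 64.4 CPM in bSCs. A single iSC library, replicate 5, reached down into the dSC range, and no bSC library did. The log2 change of dSCs against iSCs was -2.50 (SE 0.56, adjusted p = 0.0218), and without iSC replicate 5 it was -2.82 (adjusted p = 0.0038). The call was lost with the replicate block (adjusted p = 0.0836) and in 6 of 8 fits that left out 1 library, whose adjusted p ran from 0.0038 to 0.0719. The bSCs were 1.88 higher than dSCs on the log2 scale (SE 0.55, adjusted p = 0.0629), short of the threshold, and 2.46 higher (adjusted p = 0.0272) without dSC replicate 3. DESeq2 called this contrast (adjusted p = 0.0105). Groups as separate as the bSC and dSC libraries were found for 15.4% of genes. Between bSCs and iSCs the log2 change was -0.62 with an interval from -1.76 to 0.52. The macrophage marker sum was 5714 CPM in iSC replicate 5, where Ephb6 was lowest of the iSC libraries, and 228 to 1392 CPM in the other iSC libraries. That library also had the highest fibroblast sum of the iSCs, 57676 CPM, and their lowest Schwann sum, 9692 CPM. Over the 12 pooled libraries Ephb6 correlated with the macrophage sum at r = -0.824 and with the fibroblast sum at -0.746. Over the 35 single-nerve libraries the same r were -0.157 and 0.333. These are descriptions of libraries that share their regions, and the part of other cells in the Ephb6 values was not tested.

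The promoters of Efnb2 and Ephb6, the members called in opposite directions in dSCs, are shown to compare their base composition, as the 250 bases before the RefSeq start (build GRCm38.p6), at chr8:8661243-8661492 on the minus strand and chr6:41605261-41605510 on the plus strand, with CG pairs in capitals.
Efnb2: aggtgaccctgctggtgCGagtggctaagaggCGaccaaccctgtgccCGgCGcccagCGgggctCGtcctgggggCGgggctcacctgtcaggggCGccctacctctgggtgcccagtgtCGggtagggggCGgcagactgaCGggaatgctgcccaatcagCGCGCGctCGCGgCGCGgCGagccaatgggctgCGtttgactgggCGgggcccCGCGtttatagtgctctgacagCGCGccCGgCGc
Ephb6: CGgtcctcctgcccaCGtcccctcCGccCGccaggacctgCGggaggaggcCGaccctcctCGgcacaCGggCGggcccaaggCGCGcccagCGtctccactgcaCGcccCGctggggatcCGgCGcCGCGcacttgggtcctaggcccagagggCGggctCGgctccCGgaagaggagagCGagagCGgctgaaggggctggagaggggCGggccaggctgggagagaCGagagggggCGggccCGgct
Each held 27 CG pairs, more than 91.4% of the promoters of the table, whose median was 6. The RefSeq table matched 7 of the 8 members, and their promoters held from 10 pairs in Ephb1 to 27, with 20 in Ephb2. On either strand, none of the 7 held TGANTCA, the AP-1 motif with any base in the middle, which 6.75% of all promoters held, or CACGTG, an E-box, held by 6.02%. That these letters are missing says nothing on the factors that bind them.

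Ephb1, an active receptor of migrating neural cells (chromosome 9, 101824458 to 102257023, minus strand), was measured at 15.3, 9.65, 12.6 and 21.8 CPM in iSCs. It had 0 counts in 3 dSC libraries and 2.69 CPM in dSC replicate 2, and in bSCs it was at 0, 1.83, 0 and 0.0466 CPM. All iSC libraries lay above all others, a separation shared by 17% of genes against dSCs and 25% against bSCs. The fitted log2 change was -4.44 (SE 2.18, adjusted p = 0.342) in dSCs and -4.97 (SE 2.24, adjusted p = 0.160) in bSCs, so that neither was called. A single library in each region carried nearly all counts: without dSC replicate 2, which leaves dSCs at 0 counts, the dSC contrast had an adjusted p = 0.0716, and without bSC replicate 2 the bSC contrast passed the threshold (adjusted p = 0.042).

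Ephb2 (chromosome 4, 136203454 to 136391903, minus strand) was at 5.14, 9.91, 2.80 and 11.5 CPM in iSCs, 33.0, 5.44, 9.37 and 17.4 CPM in dSCs and 27.3, 22.2, 3.95 and 24.5 CPM in bSCs. The mean was lowest in iSCs, but the libraries of all regions overlapped. Its log2 change was 1.15 in dSCs (95% interval -0.57 to 2.87) and 1.41 in bSCs (-0.32 to 3.13) against iSCs, and 0.26 between bSCs and dSCs (-1.44 to 1.95), with an adjusted p of 0.283 or more. An increase of up to 3.13 on the log2 scale is therefore within the error, as is none.

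Ephb3, which shares ephrin-B ligands with EphB2 (chromosome 16, 21204828 to 21223378, plus strand), was even across the pooled regions, at 31.4 ± 8.64 CPM in iSCs, 27.1 ± 10.8 in dSCs and 30.7 ± 13.1 in bSCs. The intervals of its 3 log2 changes lay within -1.20 and 1.17. Ephb4, known from the veins as the receptor of ephrin-B2 (chromosome 5, 137791337 to 137819897, plus strand), was at 27.6, 24.998, 30.9 and 20.7 CPM in iSCs, 21.9, 1.48, 25.8 and 9.54 CPM in dSCs and 50.1, 21.04, 30.9 and 21.3 CPM in bSCs. No contrast of Ephb4 was called, and the largest, 1.07 on the log2 scale for bSCs against dSCs, had an SE of 0.68 (adjusted p = 0.404). Exons of Ephb4 share 33 bases with those of Zan on the other strand, and the libraries do not keep the strand.

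In the single nerves 0 of the 8 members were called between all distal days and intact nerves (4.29% of 15519 genes called), 1 between bridge and intact (9.34%) and 0 between bridge and distal at days 4 to 10 (0.103%). Unadjusted p-values under 0.05 numbered 2 in each of these comparisons, and DESeq2 called 0, 2 and 2 members. The member called was Efnb3. The single intact nerves held 34.3, 12.7, 60.6, 32.5 and 14.8 CPM of it. The 18 distal libraries ranged from 0 over a median of 2.25 to 18.7 CPM, and the 12 bridge libraries from 0 over a median of 0 to 10.8 CPM, with 7 of the 12 at 0 counts. All bridge libraries lay below all intact ones, a separation in either direction held by 1.24% of the genes tested. The log2 change was -6.06 in the bridge (SE 1.32, adjusted p = 0.00506) and -3.15 in the distal stump (SE 1.06, adjusted p = 0.0878). Without the 8 libraries set apart the bridge value was -6.66 (adjusted p = 0.0128). At day 6 the 3 bridge libraries had 0 counts, as had the pooled bSCs, whereas the distal libraries of that day held 8.69, 6.59 and 0.354 CPM, a mean at least 69.8-fold above the limit that 3 counts give.

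The level of Efnb1 in the distal stump was 31.3, 0.748 and 36.6 CPM at day 1, where the lowest is a library with few genes detected, 41.1, 38.3 and 44.0 CPM at day 2, and 46.5, 80.3 and 79.9 CPM at day 4. It lay between 77.1 and 112 CPM at day 6, 75.7 and 123 at day 8 and 92.1 and 122 at day 10. Against intact nerves, 144, 32.6, 136, 110 and 55.1 CPM, the log2 change at day 1 was -2.06 (SE 0.64, unadjusted p = 0.00283, adjusted p = 0.327), and DESeq2 called it (adjusted p = 0.0201). Leaving out 1 library at a time gave -2.57 to -1.49. With DESeq2, other size factors or filters, or without set-apart libraries, it ran from -2.11 to -1.54. The test for any change among distal days gave an unadjusted p of 0.0259 and an adjusted p of 0.67, in a comparison where 0.0644% of genes were called.

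Efnb2 in the intact single nerves was at 0.139 and 0.897 CPM in the 2 libraries with few genes and at 31.4, 33.6 and 38.3 CPM in the other 3, beside 4.31 to 13.6 CPM in the pooled iSCs, which were scaled separately. The distal libraries ran from 8.80 over a median of 34.2 to 112 CPM. At day 6, the day of the pooled cells, the distal stump was 1.44 above intact nerves on the log2 scale (SE 0.89, adjusted p = 0.516), beside 1.34 at day 4 (adjusted p = 0.460) and 1.04 at day 8 (adjusted p = 0.863). These 3 values include the 2 intact libraries with few genes. With DESeq2, other size factors or filters, or without set-apart libraries, the day 6 change ran from 0.739 to 1.46. That of day 4 ran from 0.676 to 1.90 and that of day 8 from 0.359 to 1.08. The mean over days 1 to 10 was 0.72 (SE 0.66, adjusted p = 0.673), and -0.09 without the libraries of low detection. In a joint fit of both experiments, which called 0% of genes for dSCs against iSCs, 0.051% for bSCs against iSCs, 0.00729% for bSCs against dSCs and 0.43% between the intact groups, the day 6 change exceeded that of the single nerves by 1.42 (SE 1.26, adjusted p = 0.995), a difference within its error. The endothelial marker sum was 1871 to 8577 CPM in the single intact nerves against 205 to 1005 CPM in pooled iSCs, and its part in the Efnb2 and Ephb4 levels was not tested.

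Ephb3 was at 16.6, 20.98, 5.18, 18.7 and 12.3 CPM in the single intact nerves. The distal libraries ran from 5.02 over a median of 35.1 to 92.3 CPM and the bridge libraries from 19.1 over a median of 42.0 to 102 CPM. Only the lowest bridge library, 19.1 CPM at day 8, fell within the intact range. The log2 change was 1.48 in the bridge (SE 0.50, adjusted p = 0.0565) and 1.08 in the distal stump (SE 0.47, adjusted p = 0.204), neither past the threshold, though DESeq2 called the former (adjusted p = 0.014). Pooled bSCs gave -0.03 for the same contrast. In the joint fit at day 6 the 2 experiments differed in this contrast by -1.51 (SE 0.80, unadjusted p = 0.0671, adjusted p = 0.442).

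Ephb1 was low in most single-nerve libraries outside the bridge: 12 of 18 distal libraries and 2 of 5 intact libraries had no count. In the bridge it was at 16.7, 10.53 and 19.3 CPM at day 6, when all distal libraries were at 0, and at 4.85, 13.1 and 0.0706 CPM at day 8. It was at 0, 1.71 and 0.0537 CPM at day 10 and at 4.12, 0 and 0 CPM at day 4. The day 6 mean of 15.5 ± 4.5 CPM (SD, n = 3) was at least 252-fold above the limit for the distal libraries. Yet the distal day 4 library of replicate 2 held 23.4 CPM, the most of any library. For bridge against distal over days 4 to 10 the log2 change was 3.55 (SE 1.45, adjusted p = 0.403), and leaving out 1 library at a time gave 1.71 (without bridge day 4 replicate 0) to 6.00 (without distal day 4 replicate 2). It was 3.56 (adjusted p = 0.204) without the 6 libraries of low detection or shared cDNA, and 5.68 (adjusted p = 0.0419) without all 8 set apart. Against intact nerves, 0 to 2.91 CPM, the bridge was 1.67 higher on the log2 scale over days 4 to 10 (SE 1.91, adjusted p = 0.678) and 4.06 higher at day 6 (SE 2.45, adjusted p = 0.402). The pooled bSCs of day 6, at up to 1.83 CPM beside 9.65 to 21.8 CPM in iSCs, gave -4.97, the opposite direction. In the joint fit the difference between the experiments was not called, either for bridge against intact (unadjusted p = 0.0162, adjusted p = 0.298) or for bridge against distal (unadjusted p = 0.0121, adjusted p = 0.737).

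Ephb2 in the single nerves ran from 0 over a median of 8.45 to 16.9 CPM in intact libraries, from 0 over 10.6 to 23.9 CPM in distal ones and from 3.12 over 14.4 to 55.7 CPM in the bridge. Its highest level was reached in the bridge at day 6, with 15.6, 55.7 and 38.4 CPM beside 15.6, 6.91 and 23.9 CPM in the distal stump. The day 6 bridge was 2.21 above intact on the log2 scale (SE 1.01, unadjusted p = 0.0371, adjusted p = 0.266). Of Ephb6 the intact nerves gave 100, 0, 10.2, 43.9 and 13.8 CPM, a spread that covered all distal and bridge libraries but 1. Its bridge libraries were lowest at day 4 (4.62, 0 and 14.2 CPM) and highest at day 10 (109, 74.2 and 49.7 CPM), and the distal ones stayed between 0 and 26.8 CPM except for 56.7 CPM in the library labelled distal day 10 replicate 0, which resembled the bridge.

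**Figure D3:**
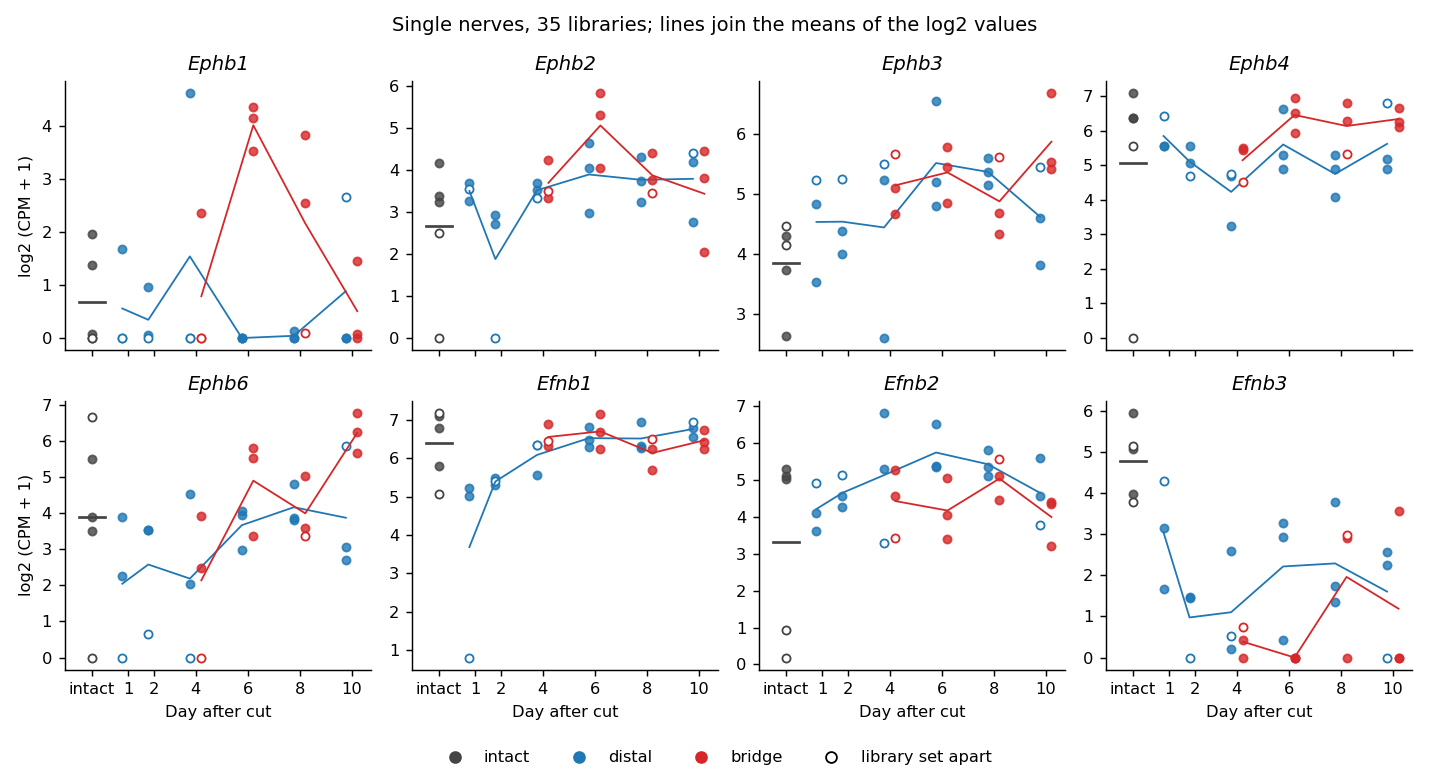
Level of each member as log2 (CPM + 1) in 35 single-nerve libraries, by day after the cut for distal (blue) and bridge (red) and at the left for intact nerves (grey); lines join group means and open symbols are the libraries set apart. The distal points of Efnb1 at day 2 lie between 38.3 and 44.0 CPM and those at day 10 between 92.1 and 122 CPM, and the bridge points of Ephb1 stand above the distal points, all at 0, on day 6.

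Taken by day, 0 of 80 tests of a member against intact nerves and 0 of 32 of bridge against distal were called by edgeR, where few genes were called at all. Against intact these were 0.18%, 0.445%, 1.73%, 0.554%, 0.303% and 0.354% of genes in the distal stump from day 1 to day 10, and 1.57%, 1.33%, 0.303% and 1.3% in the bridge from day 4 to day 10. Between bridge and distal they were 0% at days 4 and 8, 0.00644% at day 6 and 0.0129% at day 10. Unadjusted, 10 and 3 of these tests were under 0.05, and DESeq2 called 5 and 2. The difference between bridge and distal was not shown to depend on the day for any member, in a test that called 0 genes and gave 2 members an unadjusted p under 0.05.

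Bridge and distal stump of the same animal could be compared in 10 animals, and in 9 when the pair with shared cDNA is left out. A further pair, of animal 27 at day 10, was left out because the title and the source name of its bridge library carry different numbers, and its distal library is the one nearer to the bridge mean. Within the 9, Ephb4 was higher in the bridge in 9 and Efnb2 lower in the bridge in 9. Of all genes tested, 0.812% were higher and 1.04% lower in the bridge in each of the 9 (1.86% together). With the shared cDNA included, Ephb4 was higher in 9 and Efnb2 lower in 9 of the 10 animals. Neither met the stricter rule of all 10, which 0.335% of genes met as higher and 0.606% as lower. The share of genes at 9 of these 10 was not counted. With the pair of animal 27 in place of the shared cDNA, Ephb4 was higher in the bridge in 9 of 10 and Efnb2 lower in 10 of 10, and 2.73% of genes were higher and 3.18% lower in at least 9. In animal 27 Ephb4 was at 68.1 CPM in the bridge and 110 CPM in the distal stump, and Efnb2 at 8.31 and 12.7 CPM. Ephb4 was at 42.2, 44.3, 59.6, 89.8, 122, 77.1, 111, 39.1 and 99.5 CPM in the bridges, beside 24.8, 8.52, 28.5, 38.5, 97.2, 28.4, 38.1, 15.9 and 28.8 CPM in the distal stumps of the same animals. The log2 change over days 4 to 10 was 0.88 (SE 0.46, adjusted p = 0.611), and 1.22 (SE 0.31, adjusted p = 0.0706) with the animal as a replicate block, still short of the threshold. With the pair of animal 27 the blocked value was 0.91 (adjusted p = 0.258). Without pairing it was 0.96 (adjusted p = 0.092) when the 6 libraries of low detection or shared cDNA were left out. It was 1.26 (adjusted p = 0.00738) without all 8 set apart, a choice that raised the genes called between the regions from 16 to 865. In the same setting Ephb4 was lower in the distal stump than in intact nerves (-1.53, adjusted p = 0.0179), against -1.38 (adjusted p = 0.0607) without the 6 and -0.82 (adjusted p = 0.480) with all libraries. The endothelial marker sum was also higher in the bridge in 7 of the 9 animals, and the sums of pericyte and fibroblast markers in 6, and their part in the difference was not tested.

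Efnb2 in the same order was at 22.9, 37.7, 32.4, 15.7, 9.59, 20.98, 33.4, 46.3 and 19.6 CPM in the bridges and at 38.1, 112, 39.6, 40.8, 90.5, 39.8, 33.8, 55.4 and 47.9 CPM in the distal stumps. The log2 change was -0.97 (SE 0.52, adjusted p = 0.624), -1.04 with the block (SE 0.38, adjusted p = 0.185) and, with the pair of animal 27 added, -0.95 (adjusted p = 0.290). It was -1.05 (adjusted p = 0.0781) without the 6 libraries and -1.21 (adjusted p = 0.0209) without the 8. Pooled bSCs, which are other libraries, gave -1.78 against dSCs, short of the threshold. The macrophage and the Schwann marker sums were each lower in the bridge in 7 of the 9 animals. The endothelial sum was higher there in 7, and the pericyte and fibroblast sums in 6. What these cells contribute was not tested. In the 9 animals Ephb1 was higher in the bridge in 8 (4.79% of genes were higher in at least 8), Ephb2 in 7 and Ephb6 in 5. For Ephb1 the bridges of animals 26 and 30 held only 1 count each, at 0.0706 and 0.0537 CPM, against 0 in their distal stumps. Efnb1 and Efnb3 were lower in 6 each, and Ephb3 in 5. In animal 27 Ephb1 (0 against 5.26 CPM) and Ephb2 (13.1 against 20.2 CPM) were lower in the bridge.

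**Figure D4:**
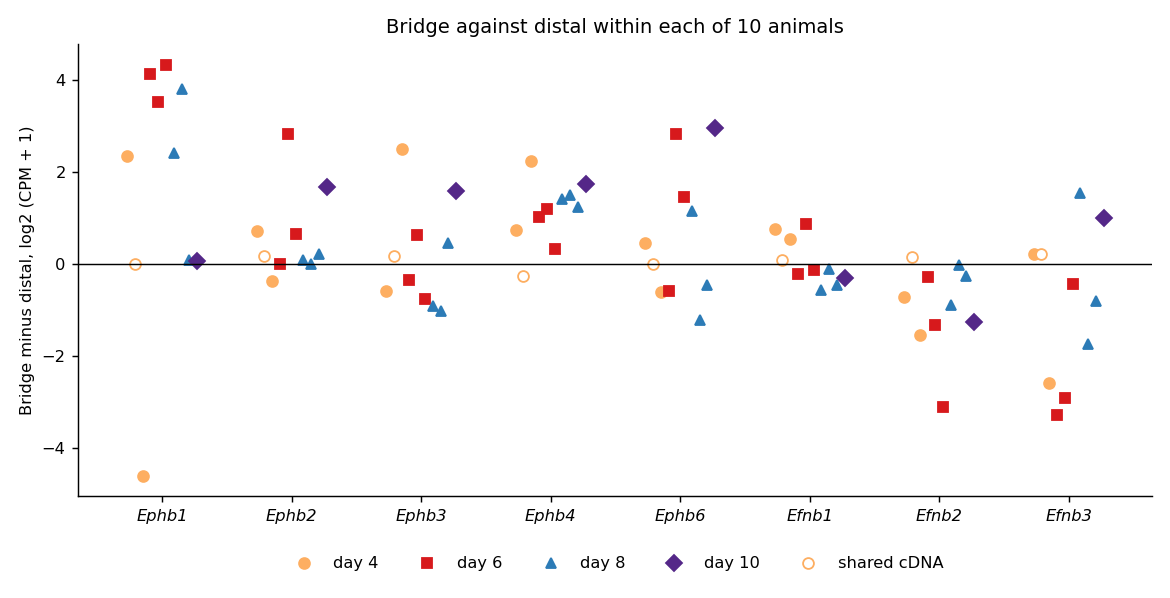
Difference between bridge and distal stump of the same animal, as log2 (CPM + 1), for each member in 10 animals; shape and colour give the day and the open circle is the pair with shared cDNA. Filled points of Ephb4 all lie above 0 and those of Efnb2 below 0, while those of Ephb3 and Ephb6 fall on both sides.

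**Figure D5:**
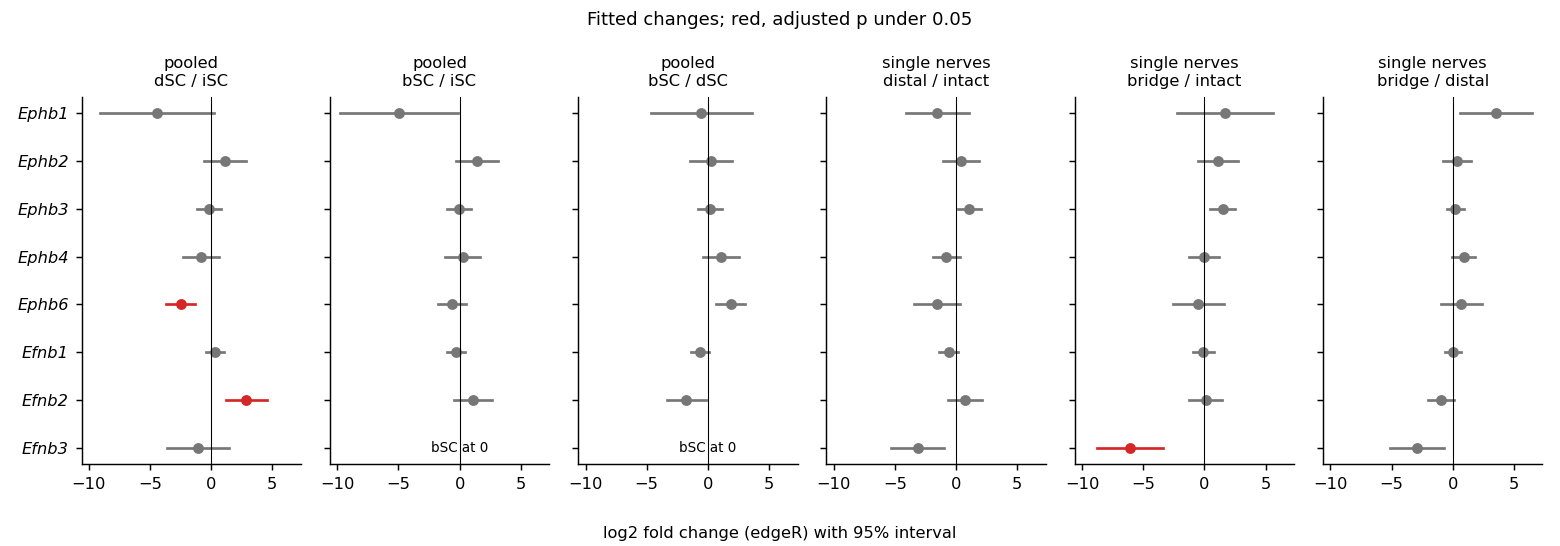
Fitted log2 fold changes with 95% intervals for the 8 members in the 3 pooled and the 3 single-nerve comparisons, red where adjusted p was under 0.05. Red intervals belong to Efnb2 (2.86) and Ephb6 (-2.50) in dSCs against iSCs and to Efnb3 (-6.06) in the single-nerve bridge; Efnb3 is left out where bSCs had no counts.

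Around the class B genes, the lists of related genes held few calls, to be read against the 5.32% of all genes called in dSCs and 14.7% in bSCs against iSCs, 5.43% between them, and 4.29% and 9.34% in the single-nerve distal stump and bridge against intact. Nothing particular to the lists can be read from counts of this size, and 0 of the 10 class A Eph receptors and ephrins tested in the pooled cells were called in dSCs or bSCs against iSCs. Epha5, a receptor of the ephrin-A ligands, was lower in bSCs than in dSCs (log2 change -3.01, SE 0.75, adjusted p = 0.0345), and the single nerves called Efna1, an ephrin-A ligand, as lower in the distal stump than in intact nerves (-1.74, SE 0.46, adjusted p = 0.0312). The list for forward signalling from EphB receptors held 31 genes, among them phosphatases that act on Eph receptors. Of the 31, 1 was higher in dSCs than in iSCs and 4 were higher in bSCs than in iSCs. Between bSCs and dSCs, 2 were higher and 1 lower in bSCs. Grb10, an adaptor that binds the EphB1 tail, rose from 61.9 CPM in iSCs to 278 CPM in bSCs (2.16, SE 0.37, adjusted p = 0.00189), and from 119 to 410 CPM in the single-nerve bridge (1.69, SE 0.44, adjusted p = 0.0142). Grb2, an adaptor to Ras, rose in dSCs (1.13, SE 0.29, adjusted p = 0.0377) and was lower in bSCs than in dSCs (-1.19, adjusted p = 0.0314). The actin regulators Cdc42 and Pak1 were higher in bSCs, Cdc42 against dSCs (0.90, SE 0.20, adjusted p = 0.0227) and Pak1 against iSCs (1.39, SE 0.40, adjusted p = 0.0325). Acp1, a phosphatase that acts on Eph receptors, was higher in bSCs than in iSCs (1.03, SE 0.23, adjusted p = 0.00945). Ptpro, a phosphatase of Eph receptors, was higher than in intact single nerves in both the distal stump (4.49, SE 1.21, adjusted p = 0.0323) and the bridge (4.69, SE 1.24, adjusted p = 0.0165), and Nck1, an adaptor to the cytoskeleton, lower in both (-1.29 and -1.47, adjusted p = 0.0385 and 0.0171). The list's median log2 change was 0.16 in dSCs and -0.06 in bSCs against iSCs, beside -0.02 and -0.16 over all genes.

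Of 12 tested genes of reverse signalling, 1 rose and 1 fell in dSCs against iSCs, and 2 rose and 1 fell in bSCs. Sdcbp, or syntenin, whose PDZ domains bind the ephrin-B tail, rose in both (1.27 and 1.33, SE 0.30, adjusted p = 0.0263 and 0.00929), and Pard6b, a polarity protein, was lower in both (adjusted p = 0.028 and 0.0124), from 7.30 CPM in iSCs to near 0. Gja1, the gap junction protein connexin 43, was higher in bSCs (1.94, SE 0.44, adjusted p = 0.00961). In the single nerves Tjp1, a tight junction scaffold, fell in the distal stump (-1.34, SE 0.30, adjusted p = 0.0103) and the bridge (-1.55, SE 0.32, adjusted p = 0.00342), and Grip2, a PDZ scaffold, in the bridge (adjusted p = 0.0462). The list's median was 0.01 in dSCs and -0.66 in bSCs.

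Of 11 proteases tested that cleave Eph receptors and ephrins, 1 rose and 1 fell both in dSCs and in bSCs, with medians of 0.37 and 0.03. Adam10, a sheddase of ephrins, was measured at 795 CPM in iSCs, 286 in dSCs and 293 in bSCs (log2 change -1.47 and -1.44, SE 0.27, adjusted p = 0.00705 and 0.00311). Adam12, a membrane metalloprotease, rose from 2.97 CPM to 25.5 in dSCs (3.10, SE 0.82, adjusted p = 0.0441) and to 78.3 in bSCs (4.71, SE 0.88, adjusted p = 0.00323), and likewise in the single-nerve bridge (4.62, SE 1.15, adjusted p = 0.0119). Of 6 genes on the route from EphB2 to cell sorting, Cdh2, which encodes N-cadherin, fell in dSCs from 139 to 31.5 CPM (-2.14, SE 0.47, adjusted p = 0.0204) and in the distal stump of single nerves (-1.68, SE 0.44, adjusted p = 0.0281), while its value in bSCs was 72.9 CPM (-0.93, SE 0.46, adjusted p = 0.202). Sox2, the transcription factor of that route, which is named here after its values were seen, was at 6.25 CPM in iSCs, 27.7 in dSCs and 9.08 in bSCs, with an adjusted p of 0.275 or more. Jup, plakoglobin, fell in bSCs (-1.41, SE 0.42, adjusted p = 0.0394) and in the single-nerve distal stump (-1.48, SE 0.33, adjusted p = 0.00954), and Ctnnb1, beta-catenin, rose in bSCs (0.78, SE 0.25, adjusted p = 0.0487).

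The genes whose log2 CPM followed a member most closely over the 35 single-nerve libraries were named by Pearson's r, as a description of libraries that share depth and the regions. Efnb3 was closest to Pcp4 (r = 0.795, and 0.885 over the 12 pooled libraries), Shisa3 (0.778 and 0.771) and Ogt (0.745 and 0.574), a likeness seen in both experiments. Ephb6 was closest to Tdrkh (0.877 and 0.524), Gm20319 (0.842 and 0.768) and Gna11 (0.83 and 0.57). Ephb4 was closest to Sema6a (0.908, but -0.0502 in the pooled libraries), Gdap2 (0.889 and 0.748) and Ubap1 (0.886 and 0.405), with 0.839, 0.58 and 0.542 when the 4 libraries of low detection are left out. For Ephb2 (Angptl2, Map1s and Clip3, r of 0.902, 0.893 and 0.889) the pooled r was 0.216, -0.228 and -0.355. Without the 4 libraries of low detection their r fell to 0.511, 0.351 and 0.563. The same was true of Efnb1 (Smo, Naa35 and Vezf1, 0.884, 0.883 and 0.877 with all libraries, 0.461, 0.361 and 0.268 without the 4). Efnb2 was closest to Ncoa1 (0.847, or 0.698 without the 4), Xrcc1 (0.841, or 0.302) and Smek2 (0.838, or 0.254). The first of the 3 for Ephb1 was Cse1l (0.701) and for Ephb3 Igsf8 (0.713), with a pooled r of -0.202 and -0.262.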

How the data were processed

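Cells were sorted from mouse sciatic nerves, and polyA RNA was amplified by Smart-seq2 without strand information. Per the labels and the study's methods, the authors aligned reads with TopHat2 2.0.11 to mm9 and deposited raw HTSeq counts per gene. Rows without a gene (52.5 to 60.5% of uniquely aligned reads) and spike-ins were left out. Counts of lanes of a library were summed. Pooled (12 libraries) and single-nerve (35) counts were fitted separately over all groups with edgeR 4.0.16 (R 4.3.3, filterByExpr, TMM, quasi-likelihood test), and plots and sums were made in Python 3.11.15. The fits were tested on simulated data. DESeq2 1.42.0, other filters, size factors, the lane number, a replicate block, and fits without single or set-apart libraries were the alternatives, the last, and the block with the pair of animal 27, chosen after seeing the data. Labels give bridge and distal pools the animal numbers 1, 2, 3 and 5, and intact pools 1, 2, 4 and 5. Deviations of pools with the same number correlated little (mean r = -0.0143, from -0.129 to 0.0802 over 10 pairs). In single nerves, bridge and distal stump of an animal gave a mean r of 0.0572 over 9 pairs. Members and lists were chosen with earlier results of these data known. Named were all members, up to 3 called genes with the largest rise and fall per pathway list and comparison, and the 3 genes most correlated with each member. P-values measure the spread between libraries. Rat culture libraries were not used here.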

Additional observations from a re-analysis of the deposited data

Results flagged for a closer look

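Of 32 groups of 4 or 5 libraries searched, 3 held a library set far from the others by Dixon's ratio. The rate of about 1 in 20 groups by chance does not hold where most libraries are at or near 0 counts, as for Ephb1. The highest bSC library for Ephb1 was at 1.83 CPM, with the next at 0.0466 CPM. The highest dSC library for Ephb1 was at 2.69 CPM, with the others at 0, which gives a ratio of 1 at any level above 0. The highest iSC library for Efnb1 was at 119 CPM, with the next at 72.8 CPM.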

How the results depend on the processing

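The number of members called in dSCs against iSCs, 2, was 0 with the replicate block, 1 with the lane covariate and 0 to 2 without 1 library. In bSCs against iSCs it was 1, and 1 to 2 without 1 library. In bSCs against dSCs it was 1, with 2 by DESeq2, 0 with the replicate block, 0 with the groups fitted alone and 1 to 2 without 1 library. In the single nerves the distal stump gave 0 against intact, and 1 without all libraries set apart. The bridge gave 1 against intact, 2 by DESeq2 and 0 with a filter of at least 100 counts in 85% of libraries, which removed Efnb3. Bridge against distal gave 0, with 2 by DESeq2 and 3 without the libraries set apart. By day, 0 were called against intact, 5 by DESeq2 and 1 without the low-detection libraries or without all set apart, and 0 for bridge against distal, 2 by DESeq2.

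Some directions turned. With the replicate block Ephb4 in bSCs against iSCs was -0.036. In the distal stump against intact, Ephb2 was -0.017 without low-detection libraries and -0.055 without all set apart, and Efnb2 was -0.091 without the former and -0.0071 without low-detection and shared-cDNA libraries. In the bridge against intact, Ephb4 was 0.023 without shared cDNA and 0.10 without the libraries nearer to the other region, Ephb6 was 0.060 without low-detection libraries, 0.21 without these and shared cDNA and 0.28 without all set apart, and Efnb2 was -0.0021 by DESeq2, -0.0020 with its size factors, -0.025 with the 100-count filter, -0.64 without low-detection libraries, -0.55 without these and shared cDNA and -0.63 without all set apart. Efnb1 in bridge against distal was 0.013 without shared cDNA and 0.0064 without this and low-detection libraries. Leaving out 1 library gave ranges across 0. In the pooled cells these were -0.44 to 0.0092 for Ephb3 in dSCs and -0.30 to 0.20 in bSCs against iSCs, -0.13 to 0.39 for Ephb4 in bSCs against iSCs, and, in bSCs against dSCs, -4.76 to 5.84 for Ephb1, -0.031 to 0.86 for Ephb2 and -0.092 to 0.41 for Ephb3. In the single-nerve bridge against intact they were -0.17 to 2.77 for Ephb1, -0.38 to 0.36 for Ephb4, -0.87 to 0.46 for Ephb6, -0.31 to 0.085 for Efnb1 and -0.26 to 0.40 for Efnb2, and -0.10 to 0.062 for Efnb1 in bridge against distal. The cause was not tested. Of the alternative fold changes in the 3 pooled and 3 single-nerve comparisons over days, 991 kept direction and side of the threshold, 18 lost the call, 10 gained it and 49 turned. Comparisons by day are not in this tally and moved more widely, as for Ephb1 in bridge against distal at day 4, from -9.85 to 7.41 without 1 library.

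Calls over all genes depended on the fit. The replicate block gave 287 genes for 732 in dSCs against iSCs, 968 for 2022 in bSCs against iSCs, 236 for 746 in bSCs against dSCs and 213 for 16 in the single-nerve bridge against distal, where DESeq2 gave 583, the block 69 once animal 27 was added, the fit without low-detection and shared-cDNA libraries 175 and the fit without libraries set apart 865. DESeq2 gave 1393, 3114 and 1939 in the pooled comparisons. Of single-nerve libraries, 12 of 18 distal ones had no count of Ephb1 and 7 of 12 bridge ones none of Efnb3, and a level under the limit that 3 counts give was not detectable at this depth.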
